A study of Homo sapiens with 2 samples.

Results

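ZMYND8 ChIP-seq summits were examined at 5 genes grouped here as luminal breast genes: ESR1, PGR, ERBB2, GATA3 and FOXA1. The genes were chosen by name, and their summits by position: a summit belonged to a gene when it lay in the hg19 span of the gene widened by 5 kb on each side. The spans took in 14 of the 45924 summits of the parental list and 0 of the 385 summits of the knockout list. The data are 2 libraries from mammospheres (floating sphere cultures) of MDA-MB-231, an established triple-negative breast cancer line. The labels give 1 genotype as wildtype, which the series text calls parental, and the other as ZMYND8 knockout; both were grown in MammoCult medium and precipitated with the same ZMYND8 antibody (Bethyl A302-089A). The labels do not say whether the knockout cells are 1 clone or a pool. With 1 library per group there are no replicates and no test across samples was possible, and read depth is not given in the sources used here. All intervals are at 95% and reflect counting error alone.

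ESR1 encodes oestrogen receptor alpha and PGR the progesterone receptor, both nuclear receptors that act as ligand-dependent transcription factors; PGR is itself a classical oestrogen-induced gene. FOXA1, a pioneer forkhead factor, and GATA3, a zinc finger factor, set up the luminal programme and help the oestrogen receptor reach its sites. ERBB2 encodes the receptor tyrosine kinase HER2. A triple-negative tumour is one scored as lacking the oestrogen and progesterone receptors and HER2 overexpression, so ESR1, PGR and ERBB2 are usually low in such lines. Summit lists hold no transcript levels, so that label could not be checked here. ZMYND8 is a chromatin reader that binds acetylated and methylated histone tails and has been linked to repression as well as to activation.

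RefSeq sequences show the DNA just upstream of the starts that the summits are set against. Each line gives the 250 bases before a RefSeq start of the build GRCh38.p14, 5′ to 3′ on the gene's strand. A RefSeq start was taken where its distance to the far end of the gene came within 200 bp of the hg19 span (0 bp for PGR, 13 bp for GATA3, 42 bp for ERBB2, 129 bp for FOXA1), and none of the 6 ESR1 starts did. The FOXA1 and PGR windows lie at the starts with a summit within 1 kb, the GATA3 and ERBB2 windows at starts without one. Capitals mark matches on either strand to any of 8 short motifs. The coordinates are of GRCh38 and are not comparable with the hg19 positions given for summits. The windows lie at chr14:37595250-37595499 (minus strand) for FOXA1, chr11:101129064-101129313 (minus) for PGR, chr10:8054438-8054687 (plus) for GATA3 and chr17:39687844-39688093 (plus) for ERBB2.
FOXA1: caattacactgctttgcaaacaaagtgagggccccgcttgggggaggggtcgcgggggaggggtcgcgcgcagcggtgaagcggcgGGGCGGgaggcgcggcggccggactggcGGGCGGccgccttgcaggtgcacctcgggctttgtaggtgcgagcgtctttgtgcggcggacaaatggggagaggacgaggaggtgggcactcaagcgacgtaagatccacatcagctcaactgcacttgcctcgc
PGR: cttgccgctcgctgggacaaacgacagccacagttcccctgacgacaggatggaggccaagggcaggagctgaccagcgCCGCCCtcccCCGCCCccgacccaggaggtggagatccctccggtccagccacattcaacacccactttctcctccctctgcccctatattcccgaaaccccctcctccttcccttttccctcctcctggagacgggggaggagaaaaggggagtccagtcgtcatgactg
GATA3: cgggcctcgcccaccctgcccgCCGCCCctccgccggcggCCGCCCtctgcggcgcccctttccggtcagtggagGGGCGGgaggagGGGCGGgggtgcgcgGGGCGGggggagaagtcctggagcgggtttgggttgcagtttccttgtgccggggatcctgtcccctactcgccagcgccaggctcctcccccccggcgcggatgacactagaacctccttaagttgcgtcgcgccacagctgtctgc
ERBB2: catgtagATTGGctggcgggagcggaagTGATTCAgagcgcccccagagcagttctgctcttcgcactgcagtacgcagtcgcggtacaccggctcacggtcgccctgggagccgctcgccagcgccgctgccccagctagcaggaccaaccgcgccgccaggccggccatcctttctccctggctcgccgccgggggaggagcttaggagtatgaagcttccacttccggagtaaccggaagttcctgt

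The windows with and without a summit nearby overlapped in base composition. GC content was 67.2% for FOXA1, 63.6% for PGR, 73.6% for GATA3 and 65.6% for ERBB2, against a median of 58% over 35116 RefSeq windows of this length. CpG dinucleotides numbered 26, 12, 26 and 23 in the same order, against a median of 11. The 6 ESR1 windows ranged from 36% to 60.8% GC and from 2 to 11 CpG. Over all their RefSeq starts, the 6 GATA3 windows ranged from 55.6% to 74.8% GC and the 3 PGR windows from 43.6% to 64.4%. The capitals in FOXA1 (2 matches), PGR (2) and GATA3 (5) are all GC boxes (GGGCGG), a motif that 42.6% of all windows hold. The ERBB2 window held instead 1 CCAAT box, found in 32.0% of windows, and 1 AP-1 motif (TGANTCA), found in 6.57%. That window lies before the start of the span only, and the DNA at any other ERBB2 start was not searched. None of the 4 windows matched the forkhead motif TGTTTAC (2.98% of windows), the GATA motif AGATAA (9.17%), the nuclear receptor motif AGGTCA (12.1%), the E-box CACGTG (6.34%) or TATAAA (10.7%). A match is a description of the letters only.

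All 5 genes held at least 1 parental summit: 4 at GATA3, 3 each at FOXA1, PGR and ESR1, and 1 at ERBB2. As a background, hg19 spans of 329 other protein-coding genes were at hand from example sets of software packages, which are not a random sample (58 of them lie on chromosome 1). Each such span covers only the transcripts of the gene in those sets, so it may be shorter than the whole gene and miss its first start. By the same rule 64.7% of these genes held a parental summit (213 of 329, exact Clopper-Pearson interval 59.3 to 69.9). FOXA1 and PGR, 2 of the 5, had a summit within 1 kb of the annotated start, which is close to the 48.6% of the sampled genes (160 of 329, 43.1 to 54.2). Only the start of each span was used, so a summit at any other start of a gene is not counted. Of the 14 summits 11 lay inside an annotated span and 3 upstream of a start, and 8 lay within 5 kb of a start. Whether a summit is exonic or intronic is not given, since an hg19 exon annotation of these genes was not used here.

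**Figure D1:**
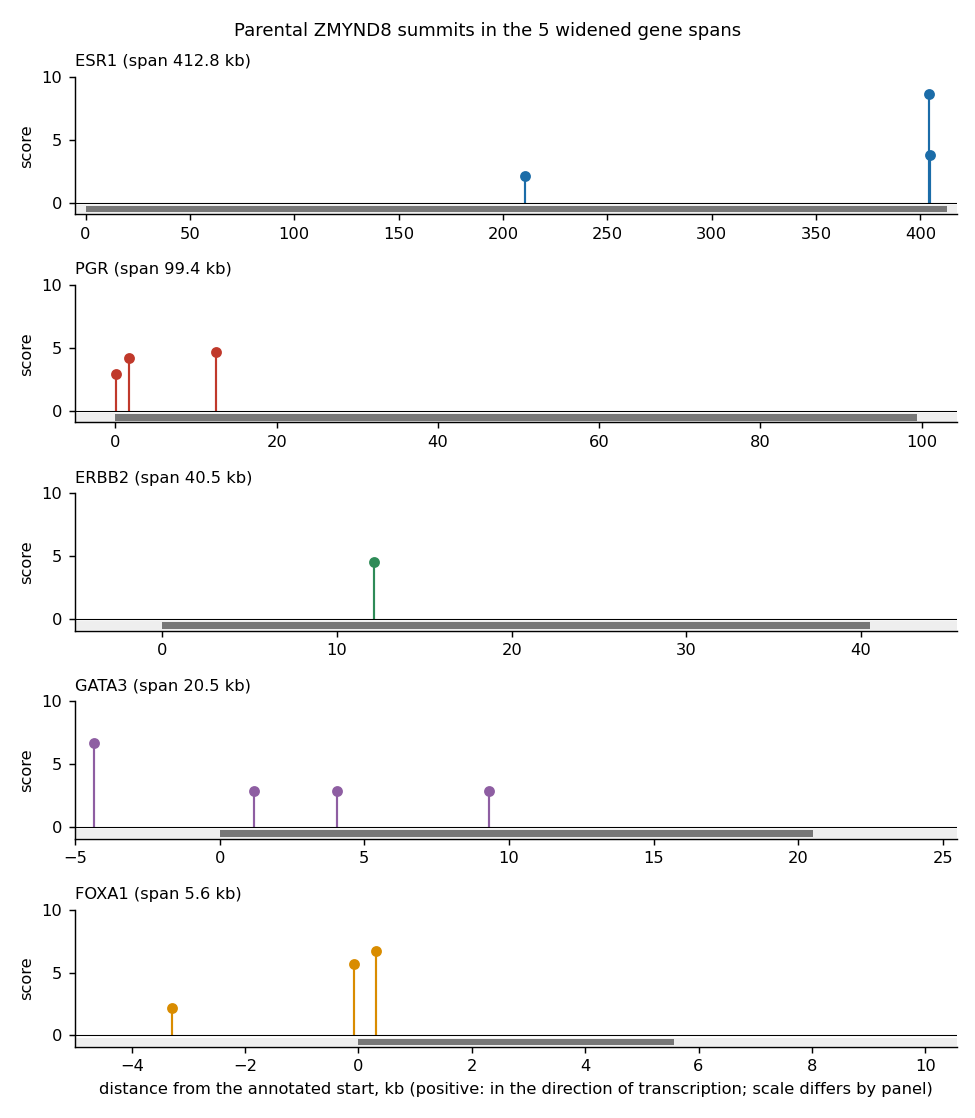
Parental summits in each gene span widened by 5 kb. The x axis is the distance from the annotated start in kb, positive in the direction of transcription, with a different scale in each panel; the y axis is the authors' score, and the dark bar is the annotated gene. FOXA1, GATA3 and PGR summits gather toward the start of the span. The ESR1 summits lie 210 kb or more from their span start, and the single ERBB2 summit 12.1 kb past its own. Other starts of a gene are not drawn.

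FOXA1, the shortest of the genes, had summits on both sides of its start. FOXA1 is annotated at 38058757 to 38064325 of chromosome 14 (14q21.1, minus strand). A summit at 38064024 lay 301 bp into the gene, with a score of 6.70. The score is the authors' −log10 of a significance value, and the sources do not say whether of p or of q. A second summit, at 38064398, lay 73 bp upstream of the start with a score of 5.68. The pair, 374 bp apart, took ranks 6747 and 9598 of the parental list, both within its highest scoring 25%. The third summit, at 38067621, lay 3296 bp upstream with a score of 2.14. A further summit at 38053741 (score 4.10), past the far end of FOXA1, missed the widened span by 16 bp, and one at 38071779 (score 3.79) lay 7.45 kb upstream of the start.

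GATA3 held the most summits, and its strongest lay outside the annotated span. GATA3 is annotated at 8096667 to 8117164 of chromosome 10 (10p14, plus strand). The strongest summit, at 8092333, lay 4334 bp upstream of the span start with a score of 6.70 (rank 6747). The RefSeq windows held 6 starts for GATA3, of which only that matching the span start was used. The others were not placed on hg19, so whether this summit lies at or past any of them could not be seen. In RefSeq the antisense long noncoding RNA gene GATA3-AS1 lies next to the GATA3 start, but no hg19 span of it was at hand, so the upstream summit could not be placed relative to it. The other 3 summits lay inside the gene, at 8097861, 8100716 and 8105970, which is 1194, 4049 and 9303 bp from the start. All 3 had the same score of 2.93 (rank 30412), a value shared by 5472 parental summits (11.9% of the list). The summit at 1194 bp fell just outside the 1 kb window around the start. Beyond the widened span the nearest parental summits were 45.6 kb upstream and 63.0 kb past the gene end, both with a score of 2.14.

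PGR carried its summits in the part of the gene nearest the start. PGR is annotated at 100900355 to 100999794 of chromosome 11 (11q22.1, minus strand). Its summits lay at 100999671, 100998065 and 100987301, which is 123, 1729 and 12493 bp into the gene. Their scores were 2.93, 4.20 and 4.71, so the summit closest to the start scored lowest of the 3. None reached the highest scoring 25% of the list, and the best stood at rank 14373. The remaining 86.9 kb of the gene held no summit. The nearest parental summits outside were 112.3 kb upstream of the start and 151.8 kb past the gene end. The RefSeq windows held 3 starts for PGR, and those other than the span start were not placed on hg19.

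ESR1, the longest of the genes, had no summit near its annotated start and a pair near its end. ESR1 is annotated at 152011631 to 152424408 of chromosome 6 (6q25.1, plus strand). Its pair of summits, at 152415624 and 152416099, lay 475 bp apart and 8784 and 8309 bp before the gene end. The former had a score of 8.63 and rank 4166 (in the top 9.07% of the list), the highest among the 14 summits, and the latter a score of 3.79. The other ESR1 summit, at 152222044 near the middle of the span, scored 2.14. It lay 210.4 kb from the start and was the summit nearest to it. The nearest summits outside were 238.5 kb upstream and 277.9 kb past the end. ESR1 is transcribed from several promoters. None of the 6 RefSeq starts at hand matched the start of the span, the smallest difference in length being 26315 bp. They were not placed on hg19, so a summit at one of them would not be seen as such here.

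ERBB2 held a single summit. ERBB2 is annotated at 37844393 to 37884915 of chromosome 17 (17q12, plus strand). The summit, at 37856534, lay 12141 bp into the span with a score of 4.55 (rank 19056). The RefSeq windows used here held 1 start for ERBB2, taken as the start of the span (42 bp difference in length). Any other start was not placed on hg19, so the summit could lie at one without being seen as such. ERBB2 had more summits around it than in it. Within 50 kb 4 lay upstream, from 13.5 to 20.6 kb before the start, with scores from 2.93 to 6.70. A pair past the gene end, at 37910195 and 37911044, scored 5.14 and 10.6, the latter above every summit in the 5 spans.

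**Figure D2:**
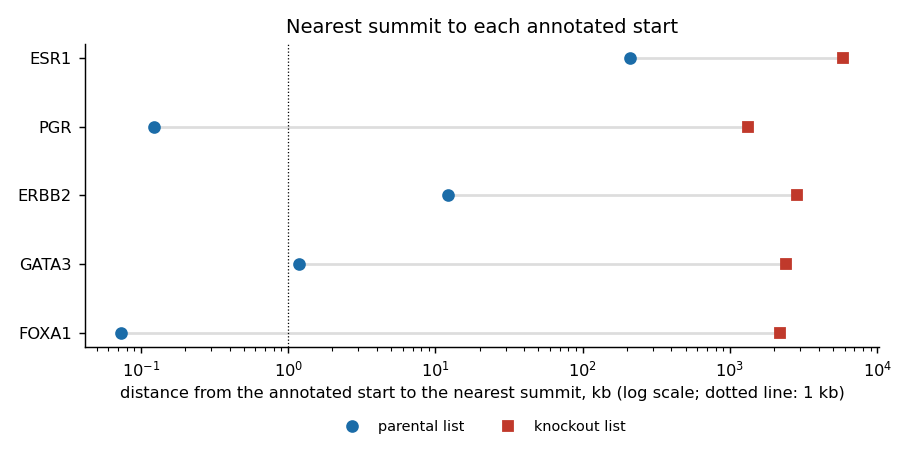
Distance in kb, on a log axis, from each annotated start to the nearest parental summit (circles) and the nearest knockout summit (squares); the dotted line marks 1 kb. FOXA1 (0.073 kb) and PGR (0.123 kb) lie under 1 kb, ESR1 (210.4 kb) lies farthest, and every knockout distance exceeds 1 Mb.

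The distance from start to nearest parental summit thus ran from 73 bp at FOXA1 through 123 bp at PGR, 1194 bp at GATA3 and 12.1 kb at ERBB2 to 210.4 kb at ESR1. Among the 329 sampled genes, by the starts of the spans at hand, the median was 1.53 kb, with quartiles of 0.225 and 47.4 kb. FOXA1 and PGR were below the lower quartile and ESR1 above the upper one. For 20 of the sampled genes the nearest summit was at least as far as for ESR1. Each distance is from the start of the span, so for a gene with other starts, such as ESR1, GATA3 or PGR, it depends on which start the span takes.

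GATA3 and FOXA1 stood out from sparse surroundings, and ERBB2 lay in dense ones. FOXA1 held 192.7 summits per Mb of widened span (exact Poisson interval 39.7 to 563.1), against 6.0 per Mb (3.10 to 10.5) in the 1 Mb to either side. GATA3 held 131.2 per Mb (35.7 to 335.8), against 9.5 (5.72 to 14.8). The intervals of span and surroundings did not overlap for these genes. They count the FOXA1 pair, 374 bp apart, as 2 independent summits. The sampled genes were not set against their own surroundings, so whether such an excess is usual for short genes was not tested. ERBB2 held 19.8 per Mb (0.501 to 110.3), and its surroundings 65.0 (54.3 to 77.2), more than the 35.4 per Mb of chromosome 17 as a whole. PGR held 27.4 (5.65 to 80.1) beside 12.5 (8.09 to 18.5), and ESR1 7.10 (1.46 to 20.7) beside 10.5 (6.50 to 16.1). For ERBB2, PGR and ESR1, with 1 to 3 summits each, the intervals overlapped. Overlap alone does not show that the densities are alike, and no test of a difference was run.

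**Figure D3:**
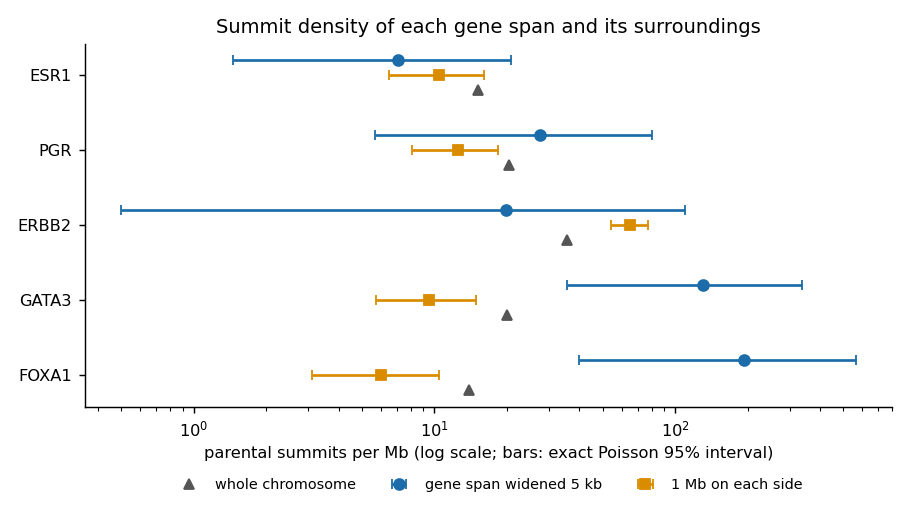
Parental summits per Mb, on a log axis, in each gene span widened by 5 kb (circles), in the 1 Mb on each side of it (squares) and over the whole chromosome (triangles), with exact Poisson 95% intervals for the first 2. FOXA1 (192.7 per Mb) and GATA3 (131.2 per Mb) lie to the right of their surroundings, and ERBB2 (19.8 per Mb) has the densest surroundings, with 65.0 per Mb.

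Among the sampled genes, shorter length classes held more summits per Mb. Their lengths are those of the spans at hand, which may be shorter than the whole genes. Sampled genes no longer than GATA3 held 72.6 summits per Mb when pooled (62.3 to 84.1), those at least as long as PGR 10.8 (9.24 to 12.6), and those between 37.6 (33.6 to 41.9). Of the 124 short genes 26 were at least as dense as GATA3 and 17 at least as dense as FOXA1; 14 of them (11.3%) held 4 or more summits and 21 (16.9%) held 3 or more. Of the 59 long genes 30 were no denser than ESR1, and 19 (32.2%) held 3 or more summits, as PGR and ESR1 did. Over the 5 spans together the density was 22.3 per Mb (12.2 to 37.4), against 15.1 per Mb over chromosomes 1 to 22 and X and 25.2 (23.3 to 27.2) over the sampled genes. ESR1 makes up 67.2% of the length of the 5 spans, and without it the density was 53.4 per Mb (26.7 to 95.5).

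The scores of the 14 summits lay on both sides of the list median. They ran from 2.14 to 8.63 with a median of 3.99, and the parental list ran from 1.31 to 263.6 with a median of 3.79. Above the list median lay 7 of the 14, and 4 (2 at FOXA1, 1 at GATA3, 1 at ESR1) were in the highest scoring 25%, which with ties holds 26.1% of the list. The 14 summits took 9 distinct scores. Low scores are heavily tied: 3383 parental summits share the 2.14 seen at FOXA1 and ESR1, and 1565 share the 6.70 seen at FOXA1 and GATA3.

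**Figure D4:**
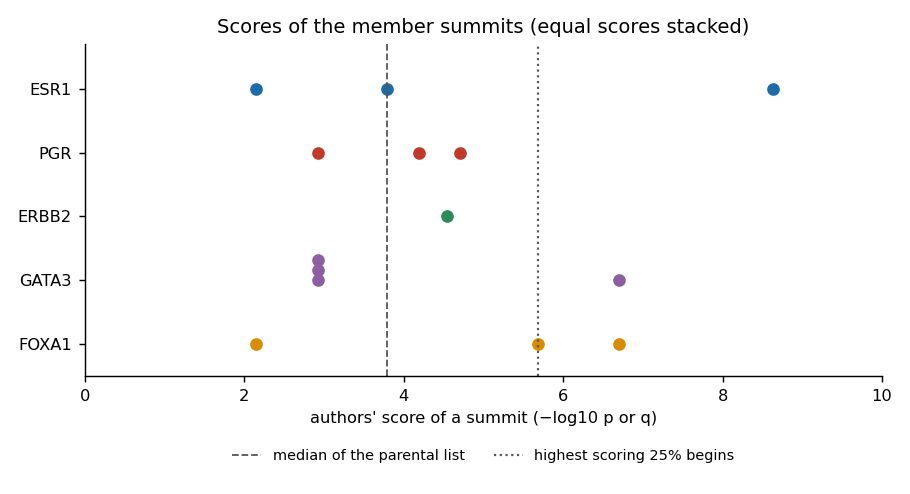
Authors' score (−log10 p or q) of each parental summit by gene, with equal scores stacked; the dashed line is the median of the parental list (3.79) and the dotted line the score at which its highest scoring 25% begins (5.68). The summits spread from 2.14 to 8.63 on both sides of the median, and none at PGR or ERBB2 reaches the dotted line.

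No knockout summit lay in any of the 5 spans. Each of the 14 parental summits had no knockout summit within 1000 bp, as did 98.8% of the whole parental list (45368 of 45924), so the share of the members is that of the background. The nearest knockout summit to a member summit was 1.32 Mb away at PGR, 2.19 Mb at FOXA1, 2.38 Mb at GATA3, 2.86 Mb at ERBB2 and 6.09 Mb at ESR1. A count of 0 among 385 knockout summits allows a share of up to 0.779%, taken as 3 counts of 385 and not as a Clopper-Pearson limit. The 14 summits made up 0.0305% of the parental list, a share that would give 0.117 summits in a list of 385, so the absence of knockout summits at these genes is not detectable as a loss with a list of that length. Of the 329 sampled genes 3 (0.912%) held a knockout summit in the widened span.

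Of 62 other luminal, related and neighbouring genes listed for comparison, an hg19 span was at hand only for IKZF3, a lymphoid zinc finger factor that lies 29.1 kb past the end of ERBB2. IKZF3 held 3 parental summits in its widened span, 1 of them 8 bp from its start with a score of 6.05, and 0 knockout summits. The other 2 are the pair named above past the ERBB2 end. The remaining 61 genes, among them KRT8, KRT18, XBP1 and TFF1, were not analysed here.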

How the data were processed

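The summit list of each ZMYND8 ChIP-seq library was analysed, 1 library per group (parental, knockout) by the genotype label. Per the submitters' processing notes, the build was hg19 and the tools were MACS2 2.0.10, Picard 1.127, Bowtie2 2.2.3 and FastQC 0.11.2, with no role or setting given. The control library, the threshold and the read depth were not stated either. The authors deposited for each summit a position and a score in −log10 units; whether it stands for a p or a q value is not stated. Scores were used only to rank within a list.

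Member spans were those of the selection rule, taken as 1-based hg19 positions; the start is the 5′ end of the span. Chromosome lengths and bands came from circlize 0.4.16, and background spans of 329 protein-coding genes from examples in pyranges 0.1.4 and GenomicFeatures 1.54.1, matched to RefSeq symbols. Each background span ran from the lowest to the highest position of the transcripts that those examples held for the gene. The length classes of these genes were set at the lengths of GATA3 and PGR after the data were seen. Members and lists were chosen with earlier results of these data known. Every member summit is named; other genes come from a list of luminal, related and neighbouring genes, where an hg19 span was at hand. Promoter windows and motif shares came from RefSeq (GRCh38.p14). Intervals are exact Poisson or Clopper-Pearson. The limit for a count of 0 is 3 counts of the total. Span counting was tested on simulated lists. Alternatives changed the widening, score minimum, merging, distances and members. The software was scipy 1.17.1, numpy 2.4.6, matplotlib 3.10.9 and pandas 2.3.3 under Python 3.11.15.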

Additional observations from a re-analysis of the deposited data

How the results depend on the processing

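No paired analysis was possible because there is only 1 library of each genotype. Of 40 alternative values, 30 held: counts stayed within 1.5 times and the density within its main interval. Knockout counts were 0 under each alternative run, but only the wider spans could have raised them. By construction, every gene also keeps a summit in wider spans, and every member summit stays without a knockout summit at a shorter distance. The 30 values that held thus include some that could not have changed. With the spans widened by 50 kb they held 23 parental summits; a wider span holds more by construction. With a score of at least 5, and likewise with the highest scoring 25% of the list, 4 summits remained in 3 genes (FOXA1, GATA3 and ESR1), the density was 6.36 per Mb, and only FOXA1 (1 gene) kept a summit within 1 kb of its start. These fall by construction, since fewer summits are counted. Without ESR1 the density was 53.4 per Mb. Unknown read depth limits any comparison of the lists.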
